A study of Mus musculus with 8 samples.

Results

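The Hox genes were followed on 8 arrays of mouse embryonic fibroblasts through 37 probe sets, out of 22626 probe sets that were not array controls. A probe set was a member if its annotation gave a single symbol made of Hoxa, Hoxb, Hoxc or Hoxd and a paralogue number. These probe sets stood for 31 of the 39 Hox genes in the RefSeq gene table. The Hoxa cluster had 12 probe sets for 9 genes, the Hoxb cluster 10 for 9, the Hoxc cluster 8 for 6 and the Hoxd cluster 7 for 7. The other 8 genes had no probe set of their own, and 3 probe sets that listed 2 Hox symbols each were left out.

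Fibroblasts from embryonic day 11, grown past crisis, the point where most primary cells cease to divide, were either Med23-/- knockout (KO) or wild type (WT). Both genotypes spent 16 h in 0.5% serum, and one of the 2 groups of each genotype then received 20% fetal bovine serum for 30 min. The 4 groups were therefore KO after serum, KO starved, WT after serum and WT starved, with 2 arrays each, numbered 1 and 2 as in the labels. MED23 is a subunit of Mediator, the complex that connects transcription factors with RNA polymerase II, and the study asked which serum responses need it. The labels name no separate clones, cultures or embryos. Loss of MED23 and any other difference between the KO and the WT cells cannot be told apart. The p-values measure only the spread between these samples, which may be technical.

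Hox genes encode homeodomain transcription factors that give cells their position along the head to tail axis. Mammals carry them in the Hoxa, Hoxb, Hoxc and Hoxd clusters, and within a cluster genes with low paralogue numbers lie at one end and act early and towards the head, while those with high numbers act later and towards the tail and the ends of the limbs. Fibroblasts keep part of the Hox pattern of the site they came from when they are grown in culture. PBX, MEIS and PKNOX proteins bind DNA together with HOX proteins, Polycomb proteins keep Hox genes silent, trithorax proteins keep them active, and retinoic acid induces the genes at the low-numbered end.

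The probe set for Med23 checked the genotype labels. Its signal was between 28 and 132 on the KO arrays, against 3577 to 5410 on the WT arrays. Whether its probes fall within the deleted sequence is not stated. Signal is the MAS5 intensity in arbitrary units, and it depends on the probes as well as on the RNA, so no probe set's signal is compared with another's as an amount of RNA. Correlations of log2 signal over all probe sets were 0.973 to 0.980 between the 2 arrays of a group, 0.956 to 0.972 between the serum states of a genotype, and 0.896 to 0.916 between genotypes. Over the 37 Hox probe sets alone the same correlations were 0.766 to 0.901, 0.794 to 0.893 and 0.264 to 0.604.

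Of the 8 Hox probe sets bright enough to be tested, 4 passed between KO and WT cells in each serum state, and they stood for 3 genes. Of all tested probe sets 50.2% passed after serum and 47.6% in starved cells, so this share is near the background. All 4 were bright enough only in the genotype in which they were higher, so entry to the test depended on the difference tested. In a fit of all probe sets, bright or dim, they passed too. Hoxd8 and Hoxd9 were higher in KO cells and Hoxa3 was higher in WT cells, in both serum states. The sequences before their start sites are shown because the first pair are neighbours that moved together and the third lies in another cluster and moved the other way. They are the 250 bases before the annotated start in RefSeq on mouse build GRCm38.p6, 5′ to 3′ on the strand of the gene. The Hoxd8 window is chr2:74704365-74704614 on the plus strand, the Hoxd9 window is chr2:74697513-74697762 on the plus strand, and the Hoxa3 window is chr6:52213068-52213317 on the minus strand. Capitals mark a CCAAT box in Hoxd8 and, in Hoxd9, a GGGCGG box read on the other strand.
Hoxd8: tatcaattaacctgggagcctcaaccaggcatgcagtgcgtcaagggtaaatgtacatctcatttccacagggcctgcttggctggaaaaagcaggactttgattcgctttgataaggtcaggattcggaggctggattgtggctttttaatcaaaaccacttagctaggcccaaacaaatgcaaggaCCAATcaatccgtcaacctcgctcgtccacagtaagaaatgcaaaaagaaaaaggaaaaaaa
Hoxd9: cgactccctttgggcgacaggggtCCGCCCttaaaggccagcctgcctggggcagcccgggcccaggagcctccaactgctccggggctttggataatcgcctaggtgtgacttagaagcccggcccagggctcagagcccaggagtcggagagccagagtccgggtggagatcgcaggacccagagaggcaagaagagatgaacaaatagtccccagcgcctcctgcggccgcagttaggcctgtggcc
Hoxa3: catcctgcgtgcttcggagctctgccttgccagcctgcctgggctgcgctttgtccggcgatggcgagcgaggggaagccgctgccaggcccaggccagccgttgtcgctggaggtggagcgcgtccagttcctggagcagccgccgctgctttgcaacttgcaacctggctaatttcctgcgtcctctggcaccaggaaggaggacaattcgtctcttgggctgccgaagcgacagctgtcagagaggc

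The annotated starts of Hoxd9 and Hoxd8 are 6852 bp apart. GC content was 44.4% in the Hoxd8 window, 65.2% in the Hoxd9 window and 64.8% in the Hoxa3 window, against a median of 52.4% over 32851 RefSeq promoter windows of the same length. The observed over expected ratio of CpG was 0.487 for Hoxd8, 0.490 for Hoxd9 and 0.687 for Hoxa3, with a median of 0.373 over those windows. The motifs searched on both strands were the TATA box TATAAA, the CAAT box CCAAT, the GC box GGGCGG and the site TGATNNAT, a form bound by PBX with HOX proteins. Hoxd8 held 1 CCAAT, which starts 62 bases before the start site, Hoxd9 held 1 GGGCGG, which starts 226 bases before it, and Hoxa3 held none of the 4 motifs. Of all windows 33.8% held CCAAT, 32.7% GGGCGG, 12.4% TATAAA and 7.68% TGATNNAT. Among the 20 windows of the 18 Hox genes found in the promoter table, these motifs were in 10, 8, 2 and 3.

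Most Hox probe sets were dim. As no detection calls were given in the sources used here, a probe set was called above the threshold on an array when its signal was at or above the 40th percentile of that array, which was 413 to 450 on the KO arrays after serum, 462 to 497 on the starved KO arrays, 472 to 488 on the WT arrays after serum and 463 to 484 on the starved WT arrays. On the KO arrays 4 and 5 Hox probe sets were above it after serum, and 2 and 4 when starved. On the WT arrays 2 and 4 were above it after serum, and 4 and 3 when starved. The median Hox probe set stood between the percentiles 14.5 and 21.9 of its array.

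Of the 37 Hox probe sets, 10 (27%) were above the threshold on at least 1 array and 8 (21.6%) on at least 2 arrays, where 66.1% of all probe sets were. The 8 were both probe sets of Hoxa3 and 1 each of Hoxa5, Hoxa9, Hoxc6, Hoxc9, Hoxd8 and Hoxd9, and Hoxa13 and another probe set of Hoxc6 were above it on 1 array. None was above it on all 8 arrays, where 51.3% of all probe sets were. The other 27 (73.0%) were above it on no array, against 31.5% of all probe sets. Their signals ran from 4.57 to 414, with a median of 51.2. They were 7 of 12 probe sets in the Hoxa cluster (4.57 to 414), all 10 in the Hoxb cluster (5.20 to 340), 5 of 8 in the Hoxc cluster (8.52 to 154) and 5 of 7 in the Hoxd cluster (4.76 to 149). None of the 9 Hoxb genes with a probe set was therefore above the threshold on any array, which bounds their signals and does not show that their RNA was absent.

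**Figure D1:**
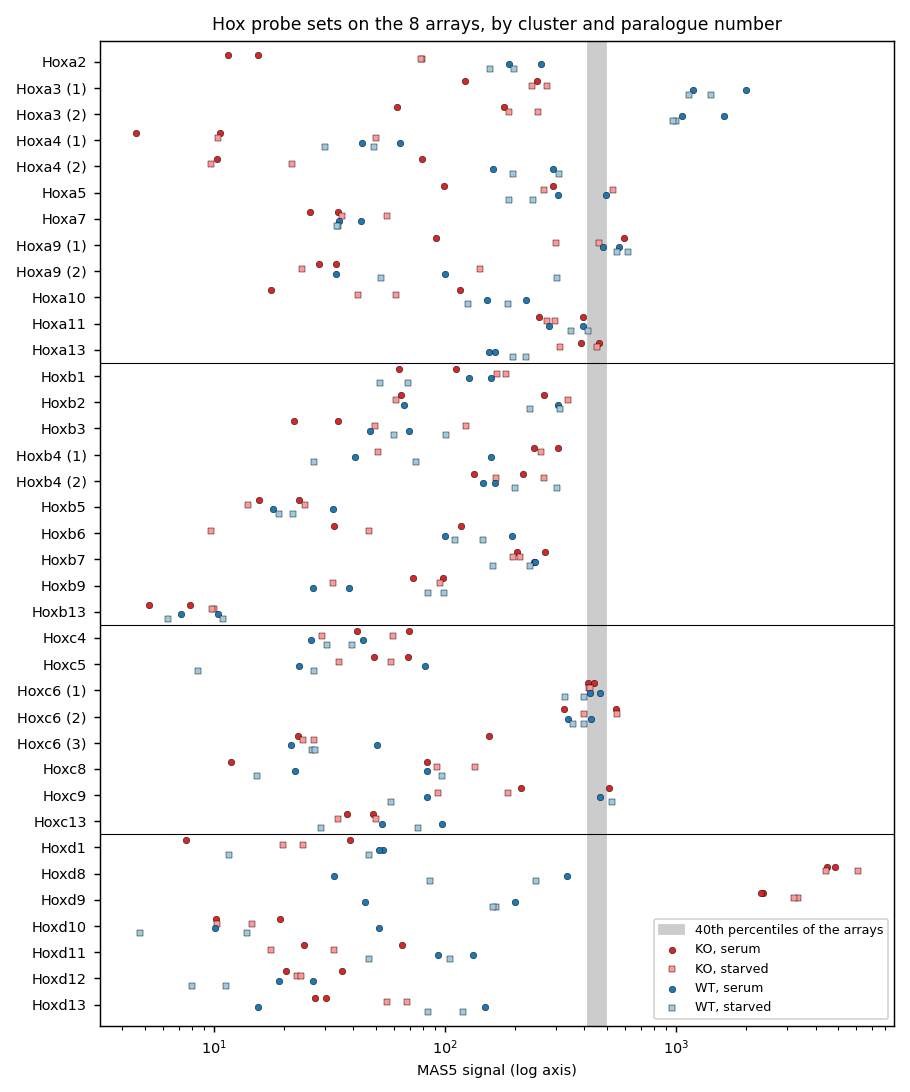
Signal of the 37 Hox probe sets (one line each, ordered by cluster and paralogue number, repeated probe sets of a gene numbered) on the 8 arrays, on a log axis; red points are KO arrays and blue points WT arrays, circles after serum and squares starved. The grey band spans the 40th percentiles of the arrays, and only Hoxd8 and Hoxd9 in KO cells and Hoxa3 in WT cells lie well to its right.

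The probe sets above the threshold on both arrays of a group differed between the genotypes. In KO cells they were Hoxd8 and Hoxd9 after serum and again when starved. In WT cells they were the 2 probe sets of Hoxa3 after serum, and those 2 with Hoxa9 when starved. The highest paralogue number above the threshold was therefore 9 in the Hoxd cluster of KO cells and 3 (after serum) or 9 (starved) in the Hoxa cluster of WT cells, and the other clusters of each group had none. With a threshold at the 30th percentile 15 Hox probe sets were above it on at least 2 arrays, and with the 60th percentile 2.

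Hoxd8, a central paralogue of the Hoxd cluster, had signals of 4497 and 4841 in KO cells after serum and 6126 and 4455 in starved KO cells, against 33.1 and 336 in WT cells after serum and 85.8 and 247 in starved WT cells. All 4 KO arrays were above all 4 WT arrays, and the WT values were below the threshold and far apart from each other. The difference of KO minus WT was 5.15 ± 0.732 (SE, n = 2 arrays each) on the log2(signal + 16) scale after serum, which is 35.6-fold, with a limma adjusted p of 0.000272. In starved cells it was 5.0 ± 0.732, which is 32.0-fold, with a limma adjusted p of 0.000339. Since WT signals were below the threshold, the fold is uncertain, and the geometric mean of the KO arrays was 9.72 times that of the WT arrays' 40th percentiles after serum and 11.04 times it when starved. Leaving out WT array 1 or 2 after serum gave 3.73 or 6.58, and the starved difference became 4.32 or 5.69 without starved WT array 1 or 2.

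Hoxd9, the next gene of the cluster and one of the paralogues that pattern the trunk and the upper limb, had signals of 2365 and 2323 in KO cells after serum and 3376 and 3222 in starved KO cells, against 44.9 and 200 in WT cells after serum and 165 and 160 in starved WT cells. Its KO and WT arrays did not overlap either. The log2 difference of KO minus WT was 4.36 ± 0.453 after serum (20.6-fold, limma adjusted p 3.54e-05) and 4.21 ± 0.453 in starved cells (18.5-fold, limma adjusted p 4.54e-05), with n = 2 arrays each. The geometric mean of the KO arrays was 4.88 times that of the WT arrays' 40th percentiles after serum and 6.97 times it when starved. Leaving out WT array 1 or 2 after serum gave 3.45 or 5.28. The other Hoxd genes, Hoxd1, Hoxd10, Hoxd11, Hoxd12 and Hoxd13, were above the threshold on no array of either genotype.

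Hoxa3, which mice need for the thymus, the parathyroid glands and other derivatives of the pharyngeal arches, was represented by 2 probe sets. They carry the same transcript accession in the annotation, so they are not independent measurements. The first had signals of 122 and 248 in KO cells after serum and 238 and 276 in starved KO cells, against 1180 and 2001 in WT cells after serum and 1130 and 1416 in starved WT cells. Its log2 difference of KO minus WT was -3.03 ± 0.351 after serum (limma adjusted p 7.62e-05) and -2.23 ± 0.351 in starved cells (limma adjusted p 0.000535). Every KO array was below every WT array and below its own threshold, and the geometric mean of the WT arrays was 3.57 times that of the KO arrays' 40th percentiles after serum and 2.64 times it when starved.

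The second Hoxa3 probe set read 179 and 61.7 in KO cells after serum and 253 and 189 in starved KO cells, against 1060 and 1608 in WT cells after serum and 996 and 964 in starved WT cells. The log2 difference of KO minus WT was -3.42 ± 0.413 after serum and -2.09 ± 0.413 in starved cells, with limma adjusted p-values of 9.68e-05 and 0.00217 (n = 2 arrays each). Without KO array 1 or 2 after serum the first of these differences was -4.09 or -2.76. Both probe sets thus gave the same direction without overlap of the genotypes. In these bulk cultures, fewer cells with a transcript and less of it per cell cannot be told apart.

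**Figure D2:**
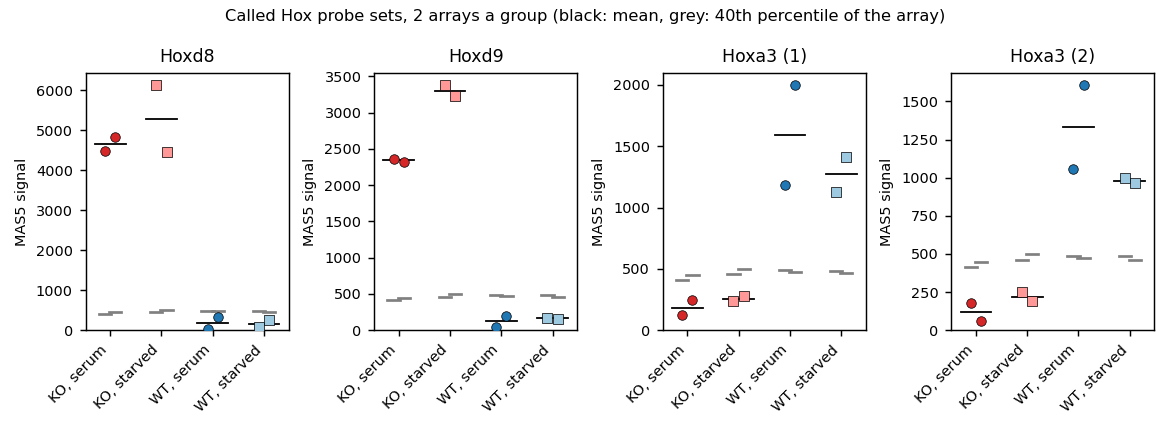
MAS5 signal (linear axis from 0) of Hoxd8, Hoxd9 and the 2 probe sets of Hoxa3 on each of the 8 arrays; points are arrays, black bars group means (n = 2 arrays) and grey bars the 40th percentile of each array. KO arrays are the higher ones for Hoxd8 and Hoxd9 and the lower ones for Hoxa3, with no overlap in either serum state.

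Of the 8 Hox probe sets that were tested, 2 were higher and 2 lower in KO cells after serum, where 22.7% of all 14947 tested probe sets were called higher and 27.5% lower (50.2% either way). In starved cells the counts were again 2 higher and 2 lower, with 22.8% and 24.8% of all tested probe sets called (47.6% either way). Calls were that common across the array, so 4 of 8 is near the background. The 4 called members reached the filter only through the genotype in which they were higher, so being among the 8 was not independent of the difference. The median difference of the 8 was -0.47 after serum and -0.06 in starved cells, against -0.07 and -0.01 over all tested probe sets. With each array centred on its median, the split of all calls after serum became 4474 higher and 3075 lower, against 3400 higher and 4106 lower as deposited, and the median difference of all probe sets became 0.09. The 4 Hox calls were made in all settings in which these probe sets were tested, with log2 differences of 3.57 to 6.58 for Hoxd8 and 2.81 to 5.28 for Hoxd9 after serum.

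Over all 37 Hox probe sets, whether tested or not, 3 (8.11%) were higher on every KO array than on every WT array, against 15.2% of all probe sets. They were Hoxd8, Hoxd9 and Hoxa13. Another 5 (13.5%) were lower on every KO array than on every WT array, against 17.3% of all probe sets, and all 5 belong to the Hoxa cluster. They were both probe sets of Hoxa3, which share a transcript accession, and a probe set each of Hoxa2, Hoxa4 and Hoxa10. Those of Hoxa2, Hoxa4 and Hoxa10 were above the threshold on no array. No probe set of the Hoxb or the Hoxc cluster separated the genotypes.

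The other tested members did not pass between the genotypes. Hoxa5, which is needed for the lung and for vertebrae at the border of neck and thorax, read 98.9 and 292 in KO cells after serum and 266 and 531 in starved KO cells, against 307 and 496 in WT cells after serum and 188 and 239 in starved WT cells. Its log2 difference of KO minus WT was -1.11 ± 0.519 after serum and 0.79 ± 0.519 in starved cells, with limma adjusted p-values of 0.0995 and 0.241. The arrays of KO and WT cells overlapped, and the replicate arrays of KO cells lay far apart.

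Hoxa9, a posterior paralogue known in the axial skeleton and in blood progenitors, read 90.9 and 593 in KO cells after serum and 302 and 460 in starved KO cells, against 482 and 564 in WT cells after serum and 550 and 616 in starved WT cells. The log2 differences of KO minus WT were -1.07 ± 0.628 and -0.62 ± 0.628, with limma adjusted p-values of 0.18 after serum and 0.446 in starved cells. Its second probe set was between 23.9 and 303 on all arrays. Hoxc6, a gene of the thoracic region, had 3 probe sets, of which the tested one was near the threshold on every array, with 326 and 546 in KO cells after serum and 397 and 553 in starved KO cells, against 341 and 427 in WT cells after serum and 355 and 399 in starved WT cells. Its differences were 0.14 ± 0.320 and 0.30 ± 0.320 (limma adjusted p 0.735 and 0.464). The second Hoxc6 probe set lay at 328 to 468, also near the threshold, and the third at 21.5 to 154, below it on all arrays.

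Hoxc9, known for thoracic vertebrae and thoracic motor neurons, read 510 and 213 in KO cells after serum and 186 and 93.2 in starved KO cells, against 83.0 and 469 in WT cells after serum and 524 and 58.0 in starved WT cells. The KO and WT arrays overlapped in both states. The limma adjusted p-values were 0.589 after serum and 0.742 in starved cells.

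The remaining members could be set against WT cells only in a fit without the filter on dim probe sets, where their signals are close to the level at which MAS5 values are noisy. In that fit of 37 members, 3 were higher and 5 lower in KO cells after serum, with 14.4% and 17.9% of all probe sets called, and 3 were higher and 3 lower in starved cells, with 14.7% and 15.8% called. The additional calls were dim genes. Hoxa2, which sets the identity of the second pharyngeal arch, read 15.4 and 11.4 in KO cells after serum and 78.8 and 78.4 in starved KO cells, against 188 and 259 in WT cells after serum and 156 and 199 in starved WT cells, and its difference after serum was -3.01 ± 0.380 (limma adjusted p 0.000385).

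Hoxa4, a gene of the cervical region, had a probe set that was lower in KO cells after serum (-2.23, limma adjusted p 0.0241) and when starved (-3.08, limma adjusted p 0.00536), and a second that was lower after serum alone by the test (-1.56, limma adjusted p 0.0422) and was -0.39 when starved (limma adjusted p 0.623). Hoxa13, which patterns the hand and foot and the urogenital tract, read 385 and 462 in KO cells after serum and 315 and 455 in starved KO cells, against 155 and 164 in WT cells after serum and 196 and 224 in starved WT cells, and was called higher after serum (1.32, limma adjusted p 0.0138). Hoxb1, the gene of the fourth rhombomere of the hindbrain, was called higher in starved KO cells (1.32, limma adjusted p 0.0345). It read 183 and 167 there, against 69.2 and 52.1 in starved WT cells, all of them below the threshold. After serum its difference had the other sign and did not pass (-0.65, limma adjusted p 0.267).

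**Figure D3:**
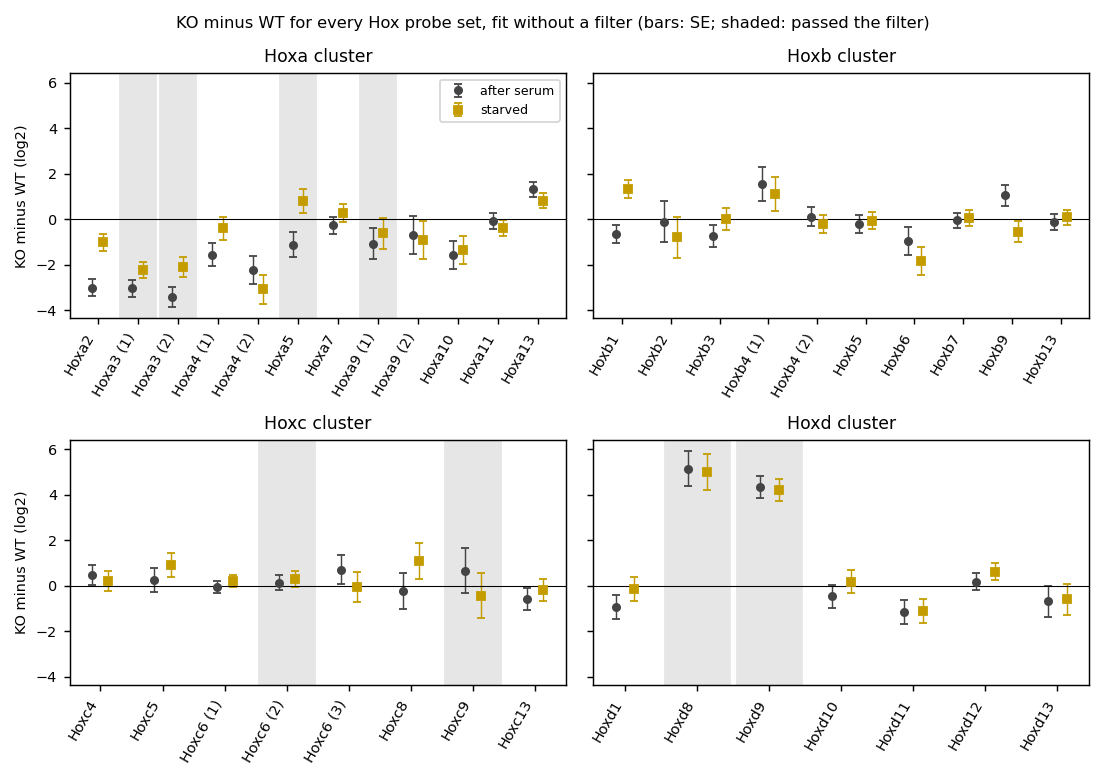
Difference of KO minus WT on the log2(signal + 16) scale for each Hox probe set, by cluster, from the fit without a filter; black circles are cells after serum, yellow squares starved cells, bars are standard errors and shading marks the 8 probe sets that passed the filter. Hoxd8 and Hoxd9 stand at 4.21 to 5.15, and the Hoxa3 probe sets at -2.09 to -3.42.

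Serum for 30 min did not change any Hox probe set by the test. In KO cells limma called 0 of the 8 tested, with 1 at an unadjusted p under 0.05 and a lowest adjusted p of 0.132, while 23.1% of all tested probe sets were called (9.33% higher and 13.8% lower). In WT cells it called 0 of 8, with 0 at an unadjusted p under 0.05 and a lowest adjusted p of 0.45, while 4.14% of all were called (2.44% higher and 1.7% lower). The difference between the genotypes' serum responses was called for 0 of 8, with 2 at an unadjusted p under 0.05 and a lowest adjusted p of 0.202, while 2.69% of all were called.

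For the 4 probe sets called between the genotypes, the serum changes were smaller than that difference, least so for the second Hoxa3 probe set in KO cells. Hoxd8 changed by -0.16 ± 0.732 with serum in KO cells and by -0.31 ± 0.732 in WT cells, on the log2 scale. Hoxd9 gave -0.49 ± 0.453 in KO cells and -0.64 ± 0.453 in WT cells. The Hoxa3 probe sets gave -0.51 ± 0.351 and -0.93 ± 0.413 in KO cells, and 0.28 ± 0.351 and 0.41 ± 0.413 in WT cells. For the second of them the difference between the genotypes' responses was -1.34 ± 0.584 (limma adjusted p 0.251, unadjusted p 0.0447). The largest difference between the genotypes' responses among the 8 was that of Hoxa5, at -1.90 ± 0.734 (limma adjusted p 0.202), with -1.06 ± 0.519 in KO cells and 0.83 ± 0.519 in WT cells. The median serum change of the 8 was -0.50 in KO cells and 0.08 in WT cells, against -0.13 and -0.05 over all tested probe sets. In the fit without a filter Hoxa2 was called lower after serum in KO cells (-1.69 ± 0.380, limma adjusted p 0.0211), the 1 call among 37 in that genotype, where 13.1% of all were called.

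The genes around the Hoxd cluster were looked up after the values of Hoxd8 and Hoxd9 were seen, taking the 3 nearest measured genes on each side. Of these genes, Atf2, Atp5g3, Evx2, Mtx2, Nfe2l2 and Ttc30b differed by at most 0.76 between KO and WT cells. Ttc30b passed at 0.54 after serum and 0.76 in starved cells (limma adjusted p 0.0279 and 0.00532), and Atp5g3 passed at 0.25 in starved cells (limma adjusted p 0.0299). Mtx2, which encodes a mitochondrial outer membrane protein, gave 0.29 and -0.07, and Evx2, the homeobox gene at the end of the cluster, gave 0.07 and 0.37. None of these 4 differences passed the test. Around the Hoxa cluster Snx10 was lower in KO cells by the test in both states (-2.67 and -2.34), as was Skap2 (-0.73 and -0.55), while Hibadh was higher (0.41 and 0.65). Tax1bp1 gave 0.20 after serum and was lower in starved KO cells (-0.37, limma adjusted p 0.0348), and the probe sets of Cbx3 and Evx1 were not tested. Beside the Hoxb cluster Nfe2l1 was lower in both states (-1.25 and -0.92). Beside the Hoxc cluster Cbx5 was lower (-0.85 and -0.52), and Atp5g2 (0.85 and 0.9) and Hnrnpa1 (0.95 and 0.82) were higher in both. The other genes tested there did not pass in both states. Of all tested probe sets 50.2% passed after serum and 47.6% in starved cells.

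Among the genes that act with HOX proteins, 8 of 9 listed cofactor genes were on the array and 7 were tested. After serum 4 were higher and 1 lower in KO cells, with 2 not passing, and in starved cells 5 were higher and 1 lower, with 1 not passing. Of all tested probe sets 22.7% were higher and 27.5% lower after serum, and 22.8% and 24.8% in starved cells. The median difference of the cofactor genes was 0.39 after serum and 1.01 in starved cells, against -0.07 and -0.01 over all. The higher genes included Pbx2 at 0.39 after serum, a call lost without a filter, without the trend and without any 1 of the 4 arrays compared (limma adjusted p 0.0543 to 0.176). Meis1, which encodes a homeodomain partner of HOX proteins, was the one that fell, with 436 and 363 in KO cells after serum and 473 and 951 in starved KO cells, against 2813 and 2649 in WT cells after serum and 3975 and 3468 in starved WT cells. Its log2 difference was -2.73 ± 0.274 and -2.44 ± 0.274 (limma adjusted p 2.79e-05 and 6.04e-05).

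Pbx3, the gene of another HOX partner, rose in KO cells by 1.74 after serum and 2.09 when starved, with 3433 to 4884 on the KO arrays and 1016 to 1118 on the WT arrays. Meis2 rose by 1.06 and 1.24 and Pknox2 by 1.84 and 2.45 in the same comparisons. The cofactors that differed were thus of both directions within the MEIS family.

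Polycomb genes, which encode the complexes that silence Hox clusters, were tested for 16 of 21 listed. After serum 5 were higher and 5 lower in KO cells (median difference 0.00), and in starved cells 6 were higher and 3 lower (median 0.20). Called genes were thus 10 of 16 and 9 of 16, near the 50.2% and 47.6% of all tested probe sets called in either direction. Ring1 (1.41 after serum and 1.56 starved) and the lower genes Phc2 (-0.98 and -0.99), Eed (-0.62 and -0.96) and Ezh2 (-0.78 and -1.17), the last the methyltransferase that writes the silencing mark, passed in both states. Of 12 trithorax genes 7 were tested, with 1 higher and 1 lower after serum and 2 higher and 0 lower in starved cells (median 0.12 and 0.21), which is below those shares. Men1 was higher in both states (0.37 and 0.87), but its call after serum was lost without any 1 of the 4 arrays compared. Its other probe set gave 0.09 after serum and 0.98 in starved cells (limma adjusted p 0.737 and 0.00262). Kmt2a was higher in starved KO cells by 0.52, a call lost without starved KO array 2 (0.33) or starved WT array 2 (0.48). Its other probe set did not pass there (0.23, limma adjusted p 0.203). Ash2l was lower after serum by the test (-0.46), and its other probe set did not pass (-0.57, limma adjusted p 0.254). The Ash2l call was lost when arrays were centred on their medians (-0.30, limma adjusted p 0.0919) and without KO array 1, KO array 2 or WT array 2 after serum.

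Retinoic acid genes were tested for 7 of 18 listed. After serum 2 were higher and 4 lower in KO cells (median -0.48), and in starved cells 3 were higher and 2 lower (median 0.40), where 22.7% of all tested probe sets were higher and 27.5% lower after serum, and 22.8% and 24.8% in starved cells. The count of 2 higher after serum was 0 without a filter, without the trend, and without KO array 1, KO array 2 or WT array 1 after serum, and it was 1 with a pseudocount of 1 and without starved KO array 1, starved KO array 2 or WT array 2 after serum. Aldh1a1 and Rdh10, enzymes of retinoic acid synthesis, were lower in both states. Aldh1a1 had 47.2 to 64.1 on the KO arrays, all below the threshold, and 688 to 853 on the WT arrays, with a difference of -3.60 ± 0.367 after serum and -3.35 ± 0.367 when starved. Rdh10 differed by -1.69 and -1.44. The receptor genes were less uniform, with Rxrb at -0.45 after serum and 0.98 in starved cells, Rarg at 0.43 and 0.76, and Rxra at 0.54 and 0.74. Another tested Rxra probe set passed in neither state, at -0.27 and 0.37 (limma adjusted p 0.155 and 0.059). Without starved WT array 2 the starved difference of the first Rxra probe set was 0.49. The calls after serum of these probe sets of Rxra, Rxrb and Rarg were lost in several settings. That of Rxra was lost in 5 (limma adjusted p 0.0636 without a filter) and that of Rarg under 9. The call of Rxrb was lost under quantile normalization and median centring and without 1 of 3 arrays. Another Rarg probe set passed in both states, at 0.56 and 0.95 (limma adjusted p 0.0061 and 0.00027). Rara was lower in KO cells after serum (-1.18, limma adjusted p 0.000815) and did not pass in starved cells (0.40, limma adjusted p 0.123).

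Of 15 genes on the list of Cdx genes and homeobox genes near or like Hox, 4 were tested. In each state 1 was higher and 1 lower in KO cells. Of all tested probe sets 22.7% were higher and 27.5% lower after serum, and 22.8% and 24.8% in starved cells, so these counts are near the background. Median centring gave 2 higher after serum, and the fit to the compared arrays only gave 0 lower in starved cells. No measured Cdx gene, the usual activators of Hox genes in the posterior embryo, was above the threshold on any array. Meox2, a homeobox gene of somites and limb muscle, rose in KO cells to 1202 and 1313 after serum and 1789 and 1104 when starved, against 36.7 and 70.1 in WT cells after serum and 60.6 and 23.8 in starved WT cells (4.24 ± 0.437 and 4.69 ± 0.437). En2, a gene of the midbrain and hindbrain border, was lower in KO cells, at 27.6 to 111 against 361 to 667 on the WT arrays (-2.68 ± 0.512 and -2.70 ± 0.512).

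Other factors of position, such as those of limb, face and body wall mesenchyme, were tested for 23 of 43 listed. After serum 12 were higher and 3 lower in KO cells, and in starved cells 17 were higher and 3 lower, against 22.7% higher and 27.5% lower, and 22.8% and 24.8%, of all tested probe sets. The median difference was 0.77 after serum and 1.40 in starved cells, against -0.07 and -0.01 over all. Foxc1, a forkhead gene of head and somite mesenchyme, rose by 2.93 and 3.91, and Foxd1, a forkhead gene of the kidney stroma, by 2.61 and 2.99. Prrx1, a gene of limb and head mesenchyme, rose by 1.84 and 1.93, and Six2, known from kidney progenitors, by 2.38 and 2.32. Zic1, singled out after its values were seen, had 17730 to 25080 on the KO arrays and 81.7 to 421 on the WT arrays (6.11 ± 0.509 and 6.80 ± 0.509). The 3 factors that were lower in both states were Gata6 (-1.35 and -0.91), Foxf1 (-0.96 and -1.14) and Irx3 (-0.78 and -1.21), also named for their small number after their values were seen. Without KO array 1 after serum, 1 factor was called lower in that state.

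**Figure D4:**
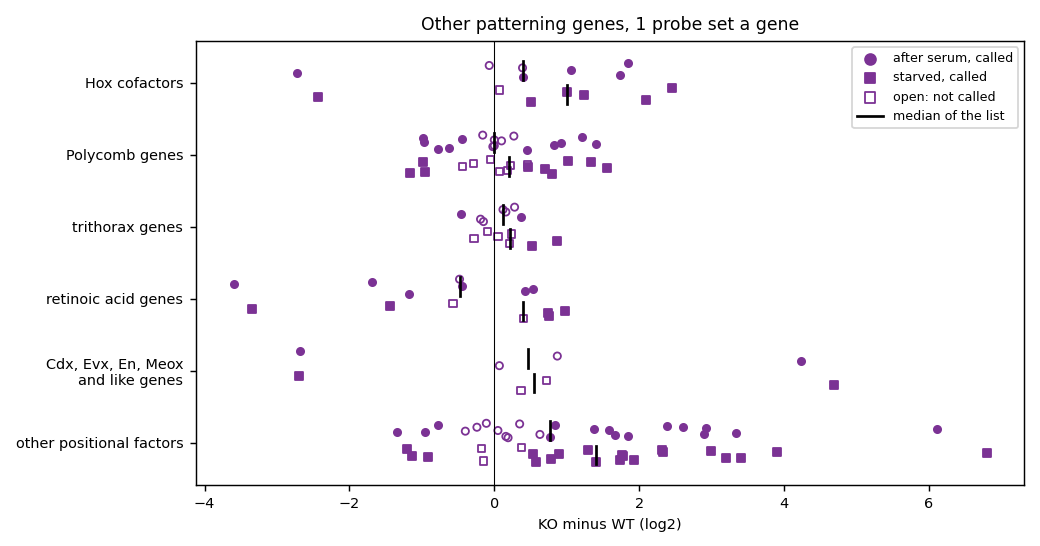
Difference of KO minus WT on the log2(signal + 16) scale for the tested genes of the 6 other patterning lists, 1 probe set a gene; circles are cells after serum, squares starved cells, filled points were called at an adjusted p under 0.05, and the black bar is the median of the list. The bars of the other positional factors lie at 0.77 and 1.40, and those of the Polycomb genes at 0.00 and 0.20.

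The markers of cell types differed between the genotypes too. Of 13 fibroblast genes on the array 10 were above the threshold on all 8 arrays, and Thy1 was above it on none. Of the 12 tested, 8 were higher and 1 lower in KO cells after serum, and 10 were higher and 1 lower in starved cells, where 22.7% and 27.5%, and 22.8% and 24.8%, of all tested probe sets were called. With the other settings 6 to 9 were higher and 0 to 3 lower after serum, and 7 to 10 higher and 0 to 2 lower in starved cells. Their summed signal was 347000 to 368600 in KO cells after serum and 379200 to 465200 in starved KO cells, against 197800 to 211700 in WT cells after serum and 197000 to 219600 in starved WT cells. Pdgfra, the receptor that marks mesenchymal fibroblasts, had 6040 to 15780 on the KO arrays and 13.2 to 129 on the WT arrays, where it was below the threshold, as was Lum, the gene of the matrix protein lumican, at 130 to 273. Col1a2, a chain of type I collagen, had 62380 to 91080 on the KO arrays, against 743 and 9443 on WT arrays 1 and 2 after serum and 581 and 8871 on starved WT arrays 1 and 2, and its call after serum was lost without WT array 1 (limma adjusted p 0.081). Dcn, the gene of the matrix protein decorin, was lower in KO cells (-0.86 and -1.13, limma adjusted p 0.0212 and 0.00548), calls that were lost without KO array 1, KO array 2 or WT array 1 after serum and without the trend (limma adjusted p 0.0519 to 0.16), and without starved WT array 1 (limma adjusted p 0.0522). Fn1, the gene of fibronectin, did not pass in either state by its brightest probe set (-0.23 and 0.02). Its other probe set passed in both states and in opposite directions. That one was higher in KO cells after serum (0.53, limma adjusted p 0.00323) and lower when starved (-1.37, limma adjusted p 8.25e-06). Col1a1, the other chain of type I collagen, did not pass after serum (0.14). The Col1a2 signals of the WT arrays numbered 2 were the higher ones in both states, as they were for Hoxd8.

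Summed neural, cartilage and epithelial markers were higher on the WT arrays, and summed endothelial and skeletal muscle markers were higher on the KO arrays in each state. The 6 neural markers summed to 2634 and 3084 in KO cells after serum and 2874 and 2875 in starved KO cells, against 6834 and 8032 in WT cells after serum and 4465 and 5030 in starved WT cells. Nes and Tubb3 were lower in KO cells and Map2 was higher, while Sox2, a defining marker, was above the threshold on no array. Another tested Nes probe set was lower after serum (-0.65, limma adjusted p 0.0494) but did not pass in starved cells (-0.21, limma adjusted p 0.515). The 5 cartilage markers summed to 4897 to 10070 on the KO arrays and 15830 to 21990 on the WT arrays, of which Col2a1 made up 1574 to 2598 on the KO arrays and 13870 to 18750 on the WT arrays. Of the 4 cartilage markers tested, 1 was higher and 2 lower in KO cells after serum, and 2 were higher and 2 lower in starved cells. Of all tested probe sets 22.7% were higher and 27.5% lower after serum, and 22.8% and 24.8% in starved cells. Sox9, the defining transcription factor of cartilage, was higher in KO cells, with 3389 and 2374 after serum and 6344 and 5938 when starved, against 2017 and 1425 in WT cells after serum and 687 and 404 in starved WT cells (0.74 and 3.50, limma adjusted p 0.0397 and 3.97e-06). Its call after serum was lost in 6 settings, with a limma adjusted p of 0.0502 to 0.258, among them without KO array 1 or WT array 2 after serum and without either starved KO array. Col9a1, a collagen gene of cartilage, was higher in starved KO cells (0.94, limma adjusted p 0.00966), while Col2a1 (-3.29 and -2.72) and Acan (-1.43 and -1.24) were lower in both states. The call of Col9a1 was lost without starved KO array 2 or starved WT array 1, and those of Acan without KO array 1, KO array 2 or WT array 2 after serum, and without starved KO array 1 or starved WT array 2, without a filter and without the trend in starved cells (limma adjusted p 0.0529 to 0.22). Of the 7 epithelial, 6 endothelial, 6 blood and macrophage, 5 skeletal muscle and 4 pluripotent markers, 4 in each list were above the threshold on no array, and Krt19 was above it on the 4 WT arrays alone. The summed epithelial signal was 1246 to 1690 on the KO arrays and 1847 to 2233 on the WT arrays. The part of these markers in the Hox differences was not tested.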

How the data were processed

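Total RNA of 8 samples was isolated by Trizol followed by RNeasy, and biotin served as the label, per the labels' protocols. The authors deposited 1 intensity per probe set and array. Per the submitters' processing notes it was computed with MAS5 (no version is listed there). The method corrects for mismatch probes, which makes dim values noisy. The labels hold no scan or batch field. After leaving out 64 control probe sets, log2 of the deposited intensity plus 16 was fitted with limma 3.58.1 in R 4.3.3 (means of the 4 groups over all 8 arrays, eBayes with trend, 4 residual degrees of freedom, two-sided tests). The 14947 probe sets at or above the 40th percentile of their array on at least 2 arrays were tested, with Benjamini-Hochberg adjustment over all of them and calls at an adjusted p under 0.05. Means, SE and n refer to 2 arrays a group, and that number limits the precision. Symbols came from the platform annotation table, and a gene on a list was read from whichever of its probe sets had the highest mean log2 signal.

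Every Hox probe set with a single symbol was accounted for, values on each array were given for called members, and up to 4 genes a list were named by the smallest p of starved KO against WT cells. Values of the uncalled tested members were given as well. The members and lists were chosen with earlier results of these data known. Alternatives were pseudocounts of 1, 64 and 256, quantile normalization, median centring, no filter or a 60th percentile filter, no trend, a fit to the compared arrays only, the replicate number as a block and leaving out each array. Counts for the other lists and for fibroblast and cartilage markers under these settings, and the genes beside the clusters, were chosen after seeing the data. Replicate numbers 1 and 2 occur in every group. Deviations of same-numbered arrays from their group means correlated at -0.034 to 0.214 over 6 pairs of groups. The highest were within a genotype, at 0.214 for WT cells and 0.097 for KO cells, against -0.034 to 0.006 between genotypes. With only 2 numbers this was not taken as pairing. The block fitted was shared by both genotypes, and pairing within a genotype was not tested. The fit was tested on simulated data for starved KO against WT cells (14947 probe sets, 200 changed, 5 runs). It recovered 61.4% of log2 changes of 1 and 91.8% of changes of 2, with 3.50% of calls false. In the real comparison 47.6% of tested probe sets were called, and the simulation held no change above 2. These rates may therefore not hold for the real data. Figures were drawn with matplotlib 3.10.9 in Python 3.11.15.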

Additional observations from a re-analysis of the deposited data

Results flagged for a closer look

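The serum response of 4 genes on the patterning lists differed between the genotypes by the interaction test of limma, where 2.69% of all tested probe sets were called. The difference of KO minus WT response was -1.59 ± 0.283 (SE, log2) for Rara, a retinoic acid receptor, with an adjusted p of 0.0195. Rara changed by -1.02 with serum in KO cells and by 0.56 in WT cells, and the call was lost without any 1 of 5 arrays, with an adjusted p of 0.0569 to 0.0842. It was -1.43 ± 0.211 for Rxrb, a retinoid X receptor (adjusted p 0.00728), with -0.97 in KO cells and 0.46 in WT cells. For the forkhead gene Foxf2 it was -2.18 ± 0.299 (adjusted p 0.00501), with -0.79 in KO cells and 1.40 in WT cells. For Foxc2, another forkhead gene of mesenchyme, it was -2.57 ± 0.339 (adjusted p 0.00471), with -1.37 in KO cells and 1.20 in WT cells.

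A probe set that lists 2 Hoxd symbols, and was therefore left out of the members, had a mean signal of 386 on the KO arrays and 65.2 on the WT arrays. It read 367 and 151 in KO cells after serum and 442 and 585 in starved KO cells, against 12.1 and 96.4 in WT cells after serum and 64.6 and 87.8 in starved WT cells. All KO arrays were above all WT arrays, as for 15.2% of all probe sets. The signal was above the 40th percentile on 1 array alone, and no gene is named from it. The other probe set listing 2 Hoxd symbols had means of 186 on the KO arrays and 39.3 on the WT arrays. Its genotypes overlapped, and it was above the 40th percentile on no array. The one listing 2 Hoxb symbols overlapped too, with means of 133 and 170.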

How the results depend on the processing

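Hoxd8, Hoxd9 and both probe sets of Hoxa3 kept their direction and their call between KO and WT cells in every setting in which they were tested, while the Hoxa3 probe sets were not tested under the 60th percentile filter. The number of Hox probe sets called after serum was 4, and it became 8 without a filter, 2 with the 60th percentile filter, 5 with the replicate number as a block and 4 to 6 when 1 array was left out. In starved cells it was 4, and 2 with the 60th percentile filter, 4 with the replicate block and 4 when 1 array was left out. For serum in KO cells it was 0, and 1 without a filter (Hoxa2), 1 in the fit to those arrays only (Hoxd9 at -0.49, adjusted p 0.0342) and 0 to 1 when 1 array was left out (Hoxa3 at -1.59 without KO array 1 after serum). For serum in WT cells it was 0, and 0 to 1 when 1 array was left out (Hoxd9 at -1.55 without WT array 2 after serum). The replicate block changed no call of the 4 probe sets named first. The number of Hox probe sets above the threshold on 2 arrays was 8, with 15 at the 30th percentile and 2 at the 60th.

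The last paralogue above the threshold moved with the threshold. At the 30th percentile it was 13 in Hoxa, 4 in Hoxb and 6 in Hoxc in KO cells after serum, 13 in Hoxa and 6 in Hoxc in starved KO cells, and 11 in Hoxa and 6 in Hoxc in WT cells in both states. At the 60th percentile it was 0 (none) in Hoxa in WT cells in both states. With 1 array left out it was 0 to 13 in Hoxa and 6 to 9 in Hoxc in KO cells after serum, 0 to 5 in Hoxa and 0 to 6 in Hoxc in starved KO cells, 3 to 9 in Hoxa in WT cells after serum and 0 to 9 in Hoxc in starved WT cells. A group then rests on 1 array.

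Small uncalled serum changes turned sign in 13 cases, and the cause was not tested. With 1 array left out, the change of Hoxd8 with serum was -0.39 to 0.07 in KO cells and -1.74 to 1.11 in WT cells (0.37 without starved WT array 2), and its difference between responses was -1.27 to 1.57 (-0.08 without starved KO array 2 and -0.53 without starved WT array 2). In the same way Hoxd9 gave -1.55 to 0.27 in WT cells and -0.76 to 1.06 for the difference between responses, and Hoxa3 gave -0.10 to 0.66 in WT cells. With the 2 larger pseudocounts the difference between responses was -0.03 and -0.15 for Hoxd8 and -0.06 and -0.27 for Hoxd9. The fit to the compared arrays only was not run for the difference between responses, which needs all arrays. Where 1 array of a group remained, its spread was taken from the other groups. Signals below the 40th percentile limit every fold given against them.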

Other observations

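Serum changed some of the positional factors outside the Hox clusters. In KO cells 2 of 23 tested factors rose and 7 fell after 30 min of serum, where 9.33% of all tested probe sets were called higher and 13.8% lower, and the median change was -0.28 against -0.13 over all. In WT cells 2 of 23 rose and 0 fell, where 2.44% and 1.7% of all were called. The factors that fell in KO cells were the forkhead genes Foxc1 (-0.82), Foxc2 (-1.37), Foxd1 (-0.62) and Foxf2 (-0.79), the T-box genes Tbx15 (-0.72) and Tbx18 (-1.27), and Alx4 (-1.23), a homeobox gene of limb and skull. Msx2 (0.80) and Irx3 (0.85) rose in KO cells, and Foxc2 (1.20) and Foxf2 (1.40) rose in WT cells. These genes were named after their values were seen. The number that fell in KO cells was 4 under quantile normalization, 3 under median centring, 4 without starved KO array 2, 3 without KO array 1 after serum and 2 without KO array 2 after serum. The number that rose in KO cells was 0 without starved KO array 1, 1 without KO array 1 after serum and 0 without KO array 2 after serum. The number that rose in WT cells was 1 without a filter, with the 60th percentile filter, without starved WT array 1 and without WT array 2 after serum. The rise of Foxc2 in WT cells lost its call without a filter (limma adjusted p 0.0501) and without starved WT array 1, starved WT array 2 or WT array 2 after serum (limma adjusted p 0.0619 to 0.136).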
